A study of Mus musculus with 5 samples.

Results

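PABPC1 peaks that lie in 5' UTRs, the stretch of an mRNA ahead of its coding sequence, were taken from a CLIP-seq map made in MEL, a line of mouse erythroleukemia cells that resemble early red cell precursors. CLIP-seq uses ultraviolet light to bind a protein to the RNA it touches, pulls the protein down with an antibody and sequences the RNA that comes with it. The series holds 3 CLIP-seq samples made with an antibody to PABPC1 and 2 mRNA-seq samples of poly(A) RNA, all from MEL cells in culture with no treatment given in the labels. The authors merged the 3 CLIP-seq samples into 1 peak list and 1 list of deletion sites. Both mRNA-seq samples share a single RPKM (reads scaled to gene length and library size) for each gene. So no value has a spread between replicates and no test between samples was possible. Intervals are exact binomial 95% intervals and cover counting error only. A peak belonged to the set when its midpoint fell, by strand, in a 5' UTR of GENCODE M21 basic (mm10) and it did not overlap an annotated start codon. That left 1404 of 90337 peaks, 1.55% (1.47 to 1.64), in 1075 genes. Another 549 peaks with their midpoint in a 5' UTR ran over a start codon and were set aside, among them the peaks of Rplp1 and of Pabpc1 itself. All 11 erythroid markers were listed in the mRNA-seq, with a summed RPKM of 1136 led by Klf1, and 10 of them stood at RPKM 1 or more. Of 9 fibroblast markers, tried because the growth protocol also names NIH-3T3 fibroblasts, 4 were listed, led by Thy1 at RPKM 65.3, and of 6 markers of other blood cells none reached RPKM 1.

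PABPC1 is the main cytoplasmic poly(A) binding protein. It coats the poly(A) tail, binds the initiation factor eIF4G at the cap end of the mRNA, and so joins both ends of a translated message. It is also known to bind an A-rich stretch in the 5' UTR of its own mRNA, where it holds back its own translation. Ribosomal protein mRNAs and other messages of the translation machinery carry short 5' UTRs that open with a run of pyrimidines, called a TOP motif.

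The sequences below show the longest runs of A under 7 of these 5' UTR peaks, with the run in capitals, because A runs are the sequence PABPC1 is known for. They were chosen after the values were seen. A stretch from the 5' UTR of Pabpc1, whose peak overlaps the start codon, is given for comparison. Sequences are from GENCODE M21 transcripts, 5' to 3', written as DNA.
Pabpc4 (chr4:123282892-123282905, plus strand): aaaaccttAAAAAAAAAAAAAAgaaaagaa
Amd1 (chr10:40301978-40301993, minus strand): ttatagcAAAAAAAAAAAAAAAAggaacct
Safb (chr17:56585087-56585096, plus strand): ataacaaatcAAAAAAAAAAcacactcacg
Lmo4 (chr3:144204983-144205004, minus strand): gattAAAAAAAAAAAAAAAAAAAAAAgcag
Mbnl1 (chr3:60529011-60529021, plus strand): tcaaggaggAAAAAAAAAAAtcattttct
Fxr1 (chr3:34041123-34041129, plus strand): ccacctgatatAAAAAAAgaaattagtga
Gpbp1 (chr13:111487490-111487496, minus strand): ggatacaaaatAAAAAAAcaaactggaaa
Pabpc1 (chr15:36608885-36608892, minus strand): ttaaaaaatccAAAAAAAAtctaaaaaatc
The runs measured 22 nt in Lmo4, 16 nt in Amd1, 14 nt in Pabpc4, 11 nt in Mbnl1, 10 nt in Safb and 7 nt each in Fxr1 and Gpbp1, against 8 nt in Pabpc1. Such runs were the exception. Only 69 of the 1404 peaks covered 6 or more A in a row, and 29 covered 8 or more.

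The second set shows the bases at which the authors listed a deletion under a 5' UTR peak, because reverse transcriptase tends to skip the cross-linked base. The base listed as deleted is in capitals. In a run of identical bases the lost base cannot be placed. Of 15 sites in a run of 2 or more identical bases, 14 were listed at the lowest genome coordinate of the run on either strand, so that the capital marks the run and not a base within it. The other is 1 of 8 sites that adjoin another site, where a loss of both bases at once and separate losses cannot be told apart. Ddx6 and Gpbp1 were added after their values were seen.
Mff (chr1:82727271-82727271, plus strand): gcatcggagcaaTttaaggagttaa
Tmem243 (chr5:9117511-9117511, plus strand): ccaaaccactgaAtatattttttgc
Safb (chr17:56585087-56585087, plus strand): taataacaaatcAaaaaaaaaacac
Amd1 (chr10:40301978-40301978, minus strand): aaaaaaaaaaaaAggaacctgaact
Gpat4 (chr8:23191438-23191438, minus strand): ctatgaactcttTacagtgaactca
Csnk1g2 (chr10:80634229-80634229, plus strand): ggcaccacaagaTttaaggcagtgg
Fxr1 (chr3:34041119-34041119, plus strand): caccaccacctgAtataaaaaaaga
Ddx6 (chr9:44607143-44607143, plus strand): gagtgaattcagAtataattcaagc
Ptp4a2 (chr4:129839432-129839432, plus strand): acaagcaagttgAatagagaaaata
Gpbp1 (chr13:111487497-111487497, minus strand): gaggatacaaaaTaaaaaaacaaac
None of the deleted bases with a position in the transcript was C or G. Of 27 deletion sites in these peaks, 24 had such a position, 11 at A and 13 at T.

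The 5' UTR peaks were low. Peak height, a whole number given by the authors and read here as the number of tags at the top of the peak, had a median of 6 and quartiles of 4 and 13 in 5' UTRs, against a median of 10 for the 549 peaks over start codons, 8 for 30741 coding peaks off start codons and 13 for 41533 3' UTR peaks. The tallest 5' UTR peak reached 693 tags, while the tallest coding peak reached 10814 and the tallest 3' UTR peak 7440. The thresholds of 9, 29 and 74 tags used below are the median of all peaks, a height reached by 10.2% of the 5' UTR peaks and one reached by 10.1% of all peaks. Peaks of 74 tags or more made up 3.06% of the 5' UTR set (43 peaks), 4.18% of coding peaks and 17.4% of 3' UTR peaks. The whole set held 0.627% of the summed height of all peaks, and its 10 tallest peaks held 16.8% of the set's own height. The median width was 58 nt in 5' UTRs, 63 nt in coding sequence and 86 nt in 3' UTRs. Since 381 peaks rest on fewer than 5 tags, single low peaks are not precise. Where tags of a whole gene or of its regions are given below, they are summed peak heights and not a count of all its tags.

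**Figure D1:**
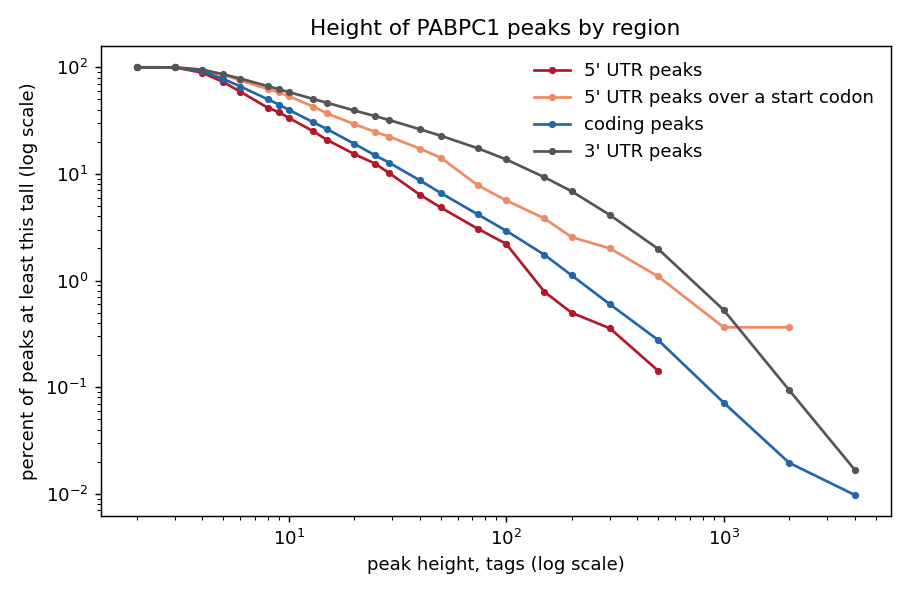
Percent of peaks (vertical, log scale) that reach a given height in tags (horizontal, log scale), for peaks in 5' UTRs off start codons, 5' UTR peaks over a start codon, coding peaks and 3' UTR peaks. The 5' UTR curve lies lowest of the 4 at heights of 29 and 74 tags, where 10.2% and 3.06% of its peaks remain.

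Annotation leaves room for other readings of the set. Of the 1404 peaks, 899 (64.0%) had a midpoint that was 5' UTR in every coding transcript of the gene over it, 254 (18.1%) lay in coding sequence of another transcript, and a further 251 (17.9%) in an intron of another transcript. Median heights in these classes were 6, 8 and 7 tags. Of the genes described below, the tallest peaks of Tmem243, Ndufv2, Fxr1, Ddit3, Eif4g1, Bcl11a and Mllt10 lie in coding sequence of another transcript, and those of Elof1, Rpl10, Mbnl1, Ccnd3 and Epb41 in an intron of one. An annotated small RNA gene on the same strand lay under 5 of the peaks. On the spliced transcript, 61 peaks ended within 2 nt of the start codon, 5 of them of 74 tags or more, and in 15 of the 61 the exon also ended there. Another 406 peaks had some bases outside annotated exons, and 43 reached upstream of the annotated transcript start.

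Ribosomal protein mRNAs carried several of the tallest 5' UTR peaks. Rplp2, which encodes a stalk protein of the large subunit, held the tallest at 693 tags (chr7:141447593-141447709, plus strand, exon 1). On the spliced transcript it ended 1 nt before the start codon. Of its 117 nt, 115 lay in exon 1 and the rest ran past that exon's end, so the start codon lies in a later exon. It made up 43.3% of the gene's summed height of 1600 tags. An annotated shorter form of the Rplp2 leader, of 31 nt, begins downstream of the peak. In Rps16, of the small subunit, nearly all signal lay in the 5' UTR, with 252 of 256 tags (chr7:28350721-28350803, plus strand). Rpl10 held 126 of 141 tags there and Rpl38 held 125 of 144. These peaks were poor in A, with 9.57% A under the peak of Rplp2, 8.43% in Rps16, 14.9% in Rpl10 and 9.26% in Rpl38, while C and T together made up 55.4% to 68.5%. None of these 4 held a deletion site. Ribosomal protein genes have near-identical processed pseudogenes, and the sources used here do not say how the authors placed reads that match several copies. Their heights, shares of the gene's height and RPKM are therefore uncertain.

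Ftl1, which encodes the light chain of the iron store ferritin, held a peak of 493 tags (chr7:45459647-45459737, minus strand), its own tallest and 63.2% of its total of 780. Its other 287 tags lay in coding sequence, and no peak was listed in its 3' UTR. How reads that match several copies were placed is not known, so this share is uncertain too. Ferritin mRNAs are known for an iron-responsive element, a hairpin near the cap whose loop begins CAGTG and which iron regulatory proteins bind. In Ftl1 the only CAGTG of the 253 nt 5' UTR stood 90 nt from the annotated 5' end, ahead of the peak, which began 147 nt from that end and whose midpoint was 61 nt before the start codon. No peak covered the CAGTG of Ftl1, nor those in the leaders of Alas2, which encodes the first enzyme of erythroid heme synthesis, and of the iron exporter gene Slc40a1. In Fth1, the ferritin heavy chain gene, the CAGTG lay 126 nt before the start codon and inside a peak of 333 tags that also covers that codon. The match is to letters only. Both ferritin sequences are shown with CAGTG in capitals and the position of its first base.
Ftl1 (chr7:45459795-45459795, minus strand): ttgcttcaaCAGTGtttgaacgga
Fth1 (chr19:9982744-9982744, plus strand): ctgcttcaaCAGTGcttgaacgga
Within 20 nt of the midpoints, CAGTG (sense strand) was found in 4.86% of windows against 4.95% of all windows of that length in the same 5' UTRs.

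Other tall peaks lay on A-rich sequence. Safb, which encodes a scaffold attachment factor that binds RNA and DNA in the nucleus, held 454 of its 557 tags in a 5' UTR peak (chr17:56585012-56585131, plus strand) of 36.7% A, with 20 deletions in 213 tags listed in the A run printed above and 10 in 218 tags at a site 11 nt upstream. Ptp4a2, a protein tyrosine phosphatase gene, held the most 5' UTR peaks of any gene, 8 in a UTR of 986 nt. Their heights in 5' to 3' order were 4, 5, 9, 20, 83, 58, 46 and 365 tags, and together they made up 39.8% of the gene's height. The tallest (chr4:129839412-129839515, plus strand) was 33.7% A, with 10 deletions in 169 tags. Mff, a mitochondrial fission factor gene, held 149 tags (chr1:82727231-82727338, plus strand) at 33.0% A, and its deletion site, with 46 deletions in 132 tags, had the most deletions of all sites in the set. Over all 5' UTR peaks the median share of A under the peak was 22.0%, with quartiles of 14.3% and 30.6%. Of the 12 tallest peaks, 5 lay above that median and 7 below.

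Pabpc4, the inducible paralog of Pabpc1, stood apart in sequence within its own leader. Its tallest peak, 165 tags (chr4:123282704-123282953, plus strand), covered the first 129 nt of the annotated 5' UTR and reached 121 nt upstream of the annotated start. The covered 129 nt were 64.3% A, against 14.4% A in the other 661 nt of the UTR. The 3 further 5' UTR peaks of Pabpc4 held 5, 4 and 8 tags. Together the UTR held 182 of the gene's summed height of 268 tags, or 67.9%, beside 80 in the 3' UTR and 6 in coding sequence, at RPKM 87.9. No deletion site lay in these peaks. An annotated shorter form of the Pabpc4 leader begins downstream of the tallest peak. Pabpc1, at RPKM 1143, held 2221 of its 4385 tags in the peak over its start codon, and its 467 nt 5' UTR was 20.6% A over its whole length. The share of A under that peak was not taken. Whether the peak reaches the A run printed above, 386 nt before the start codon, is not reported here. In Amd1, which encodes a decarboxylase of polyamine synthesis, the peak (chr10:40301967-40302009, minus strand) was lower at 50 tags but 67.4% A, and 17 of the 50 tags had a deletion listed in the A run.

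Also among the 12 tallest were Elof1 (233 tags), a transcription elongation factor gene, Atp5mpl (198), a subunit gene of ATP synthase, Prdx2 (188), a peroxidase gene abundant in red cells, and Pcbp2 (155), whose product binds poly(C). The peak of Pcbp2 was 3.66% A and 80.1% C and T. Atp5mpl had 6 deletions in 158 tags. Adcyap1r1, picked out after its values were seen, held a peak of 118 tags that was only 21 nt wide, was its gene's only peak, and had no RPKM listed.

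Midpoints lay toward the start codon. On the transcript with the longest 5' UTR, the median midpoint was 0.640 of the way from the 5' end (interval of the median 0.625 to 0.661), 112 nt before the start codon and 209 nt from the 5' end, in UTRs of a median 372 nt. Cut into 5 stretches of equal length from the 5' end on, the UTRs held 6.48%, 15.9%, 22.1%, 31.6% and 24.0% of peaks, where even placement gives 20% each. The removal of start codon peaks thins the last stretch. With those 549 peaks kept, the last stretch held 38.4% and the first 5.27%. On the longest UTR 7.48% of midpoints lay within 50 nt of the annotated 5' end, while 17.8% lay within 50 nt of the start codon although the rule removes peaks there. With the shortest 5' UTR over each midpoint the median position was 0.580, 15.7% of midpoints lay within 50 nt of the 5' end and 20.3% within 50 nt of the start codon, and the last of the 5 stretches held 16.1%, below even placement. The 5' ends are those annotated, and start sites in MEL cells were not measured here.

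**Figure D2:**
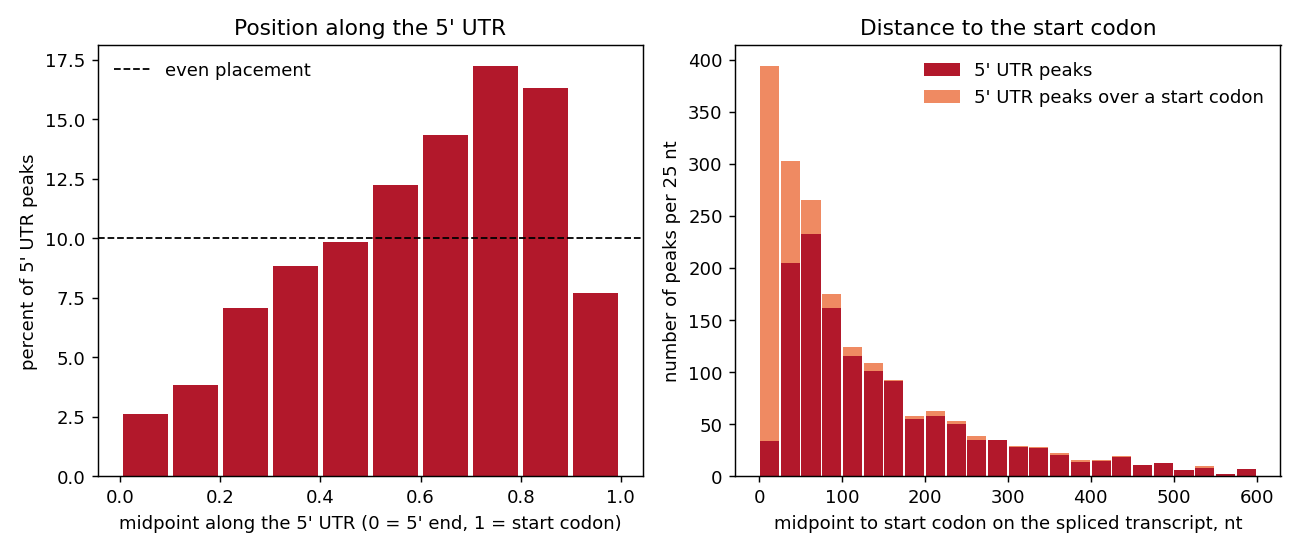
Left, percent of 5' UTR peaks off start codons in 10 bins along the 5' UTR from the 5' end (0) to the start codon (1), with even placement as a dashed line. Right, number of peaks per 25 nt of distance from midpoint to start codon on the spliced transcript, with peaks over a start codon stacked above. The left bars climb to 17.2% in the bin from 0.7 to 0.8.

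Later exons of the leader held more peaks than their length would give. In the 1009 peaks whose 5' UTR spans more than 1 exon, 42.9% lay in exon 1, which held 56.8% of the UTR bases on average. Over the whole set 828 peaks lay in exon 1, 392 in exon 2 and 184 further on, with median heights of 6, 7 and 6.5 tags. A peak matched the limits of its exon within 5 nt at both ends in 56 of the 576 peaks outside exon 1, or 9.72%. These exons had a median length of 75 nt and a median peak height of 14.5 tags, against 162.5 nt and 6 tags for the other 520. The exon counts were not split by annotation class. Some of the exon-filling peaks, such as those of Tmem243 and Fxr1, lie in coding sequence of another transcript, while that of Mff does not.

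The bases around the midpoints were richer in A and T than the leaders they lie in. In 1379 windows of 41 nt, A made up 23.2% against 20.4% over all positions of the same 5' UTRs, and T 23.6% against 21.4%. G made up 25.3% against 29.5%, and C 27.8% against 28.7%. The CpG dinucleotide took up 5.60% against 6.69%. In the 139 windows of peaks of 29 tags or more A stood at 25.9% against 21.1%. The ratio over all 5' UTR peaks, 1.14, stood beside 1.10 for coding peaks and 1.10 for 3' UTR peaks, each against its own region, while the level of A was far higher there, at 30.5% and 29.2%.

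Hexamers rich in A led the set. AAAAAA lay within 20 nt of 3.41% of midpoints (2.51 to 4.51), against 1.48% of all windows in the same 5' UTRs, a ratio of 2.30. AATAAA, the main poly(A) signal, reached 2.97% against 1.02%, a ratio of 2.91. ATATAA reached 1.74% against 0.599%, a ratio of 2.90. The ratios for coding peaks were 2.14, 2.93 and 3.00, and for 3' UTR peaks 1.82, 2.43 and 2.06, all inside the intervals of the 5' UTR ratios (1.70 to 3.04, 2.09 to 3.92 and 1.87 to 4.30). TTTTTT stood at 1.52% against 1.54%. Among peaks of 29 tags or more AAAAAA reached 9.35% (13 windows) against 2.42%, and AATAAA 5.04% (7 windows) against 1.00%. That threshold was chosen after the values were seen. At 9 tags or more the ratios were 2.38 for AAAAAA and 2.66 for AATAAA, and at 74 tags or more the motifs lay in 2 and 1 of 41 windows, with ATATAA in none. Of 143 hexamers found in at least 30 windows, AAATAA had the largest log2 ratio at 1.76, followed by AGATAA at 1.71 and AATAAA at 1.54, and GGCGGC the lowest at -1.11. Motifs were counted on the sense strand, AAATAA and AATAAA overlap, and most 5' UTR peaks held none of the 3 leading motifs.

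**Figure D3:**
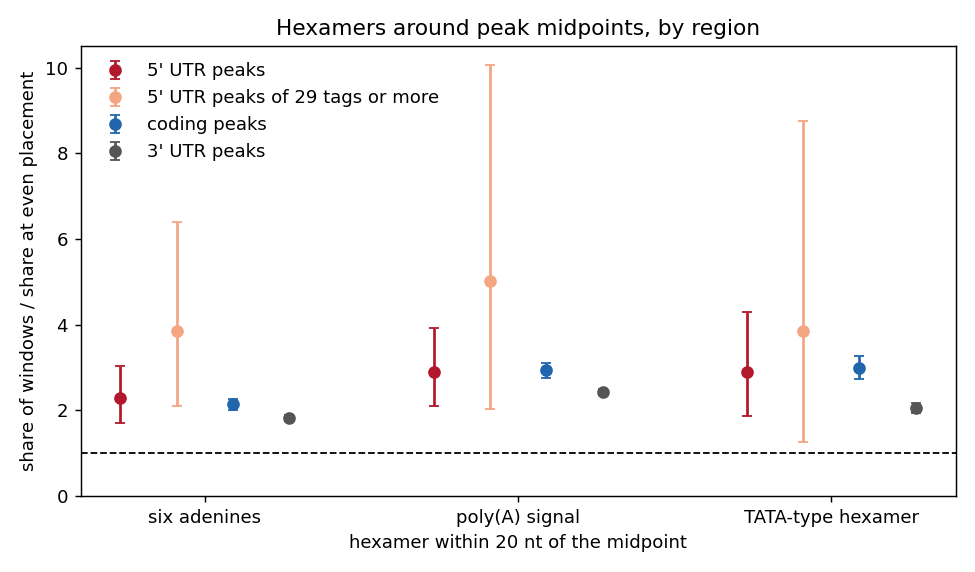
Share of 41 nt windows around peak midpoints that hold a run of 6 adenines, the poly(A) signal hexamer or the TATA-type hexamer, divided by the share over all positions of the same regions, for 5' UTR peaks, 5' UTR peaks of 29 tags or more, coding peaks and 3' UTR peaks. Bars are exact 95% intervals of the observed share and the dashed line marks even placement. The 3 points for all 5' UTR peaks lie at 2.30, 2.91 and 2.90.

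How ATG around the midpoints compared with the rest of the leader depended on the background and on the peaks taken. An ATG lay in 31.0% of windows (28.6 to 33.6) against 31.6% over all positions. Against positions at least 30 nt before the start codon the background was 26.6%, below the interval. Only the background was cut back in this way, and windows of peaks nearer the start codon were kept. For peaks that were 5' UTR in every coding transcript over them, ATG lay in 25.1% of 881 windows (22.3 to 28.1). Over all positions of their UTRs it was 28.5%, above the interval.

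Few 5' UTR peaks held a deletion site. There were 20 of 1404, or 1.42% (0.872 to 2.19), beside 5.74% of all 90337 peaks. The share depended on height. Among peaks of 29 to 73 tags, 9 of 100 5' UTR peaks held one, with an interval of 4.2% to 16.4%, against 5.36% (4.53 to 6.28) of coding peaks and 9.01% (8.30 to 9.75) of 3' UTR peaks. At 74 tags or more it was 9 of 43, 20.9% (10.0 to 36.0), against 29.05% (26.6 to 31.6) of coding peaks and 47.1% (46.0 to 48.3) of 3' UTR peaks. This top bin has no upper limit, so heights within it are not matched between regions. Of all peaks in each region, 0.783% in 5' UTRs, 1.74% in coding sequence and 9.31% in 3' UTRs reached 150 tags. It was 1 of 870 5' UTR peaks at 2 to 8 tags and 1 of 391 at 9 to 28 tags, beside 0.271% and 1.19% of all peaks at those heights. Every site in the set carried at least 6 deletions, and 59.0% of 5' UTR peaks reached 6 tags. Lower peaks could hardly hold a listed site, so the shares over all heights and at 2 to 8 tags are limited by this. Of all 73 deletion sites in 5' UTRs, 24 lay in this set, 34 in peaks over a start codon and 15 in neither.

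**Figure D4:**
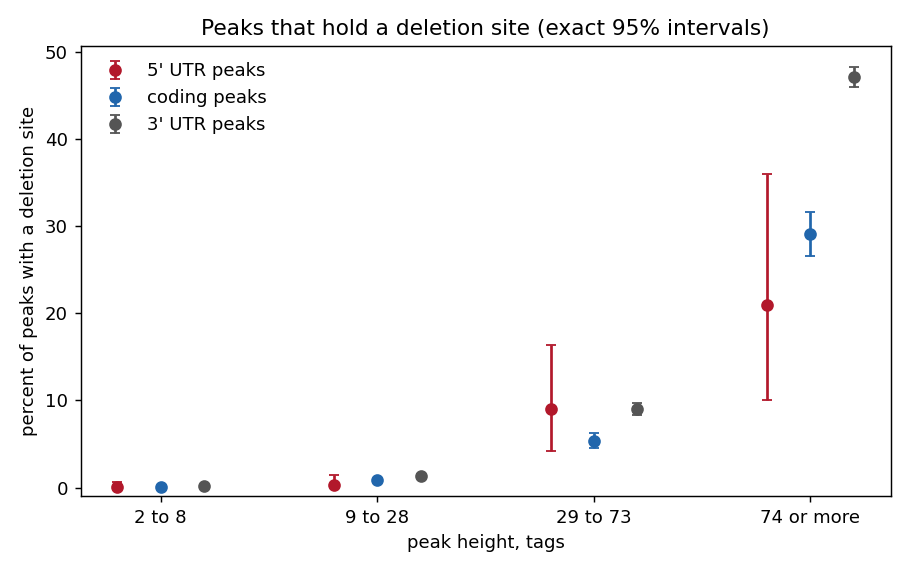
Percent of peaks that hold a deletion site (vertical) by peak height in tags (horizontal), for 5' UTR peaks, coding peaks and 3' UTR peaks, with exact 95% intervals. At 29 to 73 tags the 5' UTR point, 9 of 100 peaks, lies beside that of 3' UTR peaks, 9.01%, and at 74 tags or more it lies below, at 20.9% against 47.1%. The last bin has no upper limit, and heights within it are not matched between regions.

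The deletion sites lay on varied sequence. They carried 6 to 46 deletions and a median of 21.4% of their tags were deleted. Of the 24 sites with a position in the transcript, 8 had an AAAAAA within 20 nt, 4 had an ATATAA and 3 an AATAAA, while 14 had none of these. Fxr1, which encodes an RNA-binding relative of the fragile X protein, and Ddx6, a helicase gene of mRNA decapping, accounted for all 4 sites near an ATATAA, with 2 adjoining sites of 6 deletions each. Tmem243 had 25 deletions in 97 tags and 25 in 99 at adjoining bases. Gpat4, a glycerolipid acyltransferase gene with 5 peaks in a 5' UTR of 860 nt, had 15 in 85 tags, and Csnk1g2, a casein kinase gene, 14 in 30. Smad7, an inhibitor of TGF-beta signalling, had 6 deletions at each of 2 adjoining bases. In Apaf1, all 7 tags of a 7-tag peak were deleted at 1 base, and in Ndufv2 3 sites with 7 deletions each, in 7, 8 and 18 tags, lay outside annotated exons. Apaf1 was picked out after its values were seen.

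At the level of genes, 1041 of 10140 coding genes with RPKM of 1 or more and an annotated 5' UTR held a 5' UTR peak off the start codon, 10.3% (9.68 to 10.9). Of genes at RPKM 1 to 5, 3.47% held one. The share reached 7.65% between RPKM 5 and 20, 13.3% between 20 and 100, and 17.8% from RPKM 100 up. By length of the longest 5' UTR it was 1.15% up to 100 nt, 6.40% above 100 and up to 200 nt, 12.8% above 200 and up to 400 nt, and 21.04% above 400 nt. Abundant genes and long leaders thus held one more often. Across the 1041 genes, Spearman's rho of the tallest 5' UTR peak was 0.33 with RPKM and 0.07 with the length of the UTR. Genes are not independent replicates, and heights come from the same merged library.

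In most of these genes the 5' UTR was a small part of the signal. It held a median of 2.78% of a gene's summed exonic height, with quartiles of 1.27% and 7.18%. The tallest peak of the gene lay in the 3' UTR in 872 of the 1041 genes (83.8%), in coding sequence in 115, over the start codon in 7 and in the 5' UTR in 47. Among the 47 were Ftl1, Safb, Ptp4a2, Rps16 and Pabpc4, followed by Rpl10, Zfp664, Rpl38, Tmem243 and Usmg5, an ATP synthase-associated gene with 93 of 118 tags. Among genes of 50 tags or more, the share was 98.4% in Rps16, 89.4% in Rpl10, 86.8% in Rpl38 and 81.5% in Safb. In 40 genes the 5' UTR held at least 50% of the height, and in 15 genes, such as Rps29 with 35 tags and Hspa8 with 13, there was no other peak. How reads that match several copies were placed is not known, so a lack of other peaks there need not mean a lack of binding. The log2 ratio of height to RPKM, with a pseudocount of 1 on both that understates it for low genes, had a median of -1.94 over the tallest peak of each gene. It was 3.61 for Rplp2.

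Gene lists differed in how many of their expressed genes held a 5' UTR peak, read against the 10.3% over all expressed coding genes. Ribosomal proteins stood at 25 of 79, 31.6% (21.6 to 43.1), with a median tallest peak of 21 tags. Their longest annotated 5' UTRs had a median of 166 nt and their median RPKM was 57.4. Messages known for upstream reading frames or stress stood at 10 of 24, 41.7% (22.1 to 63.4), with a longer median leader of 332 nt. They were led by Amd1 and the chaperone gene Hsp90ab1 with 50 tags each, then Ddit3 with 38 and Slc35a4 and Atf5 with 29 each. Translation factors and other TOP mRNAs stood at 9 of 29, 31.0% (15.3 to 50.8), led by Pabpc4 and by Eif4g2 with 38 tags. The peak of Eif4g2, an mRNA known to start translation at GUG, ran 13 nt past the end of its annotated 5' UTR, the only such case among the 1404. The list of poly(A) tail binding genes and regulators of Pabpc1 stood at 4 of 21, 19.0% (5.45 to 41.9), among them Pabpc4, Eif4g1 (9 tags) and Paip2 (7). Cell cycle and growth genes stood at 4 of 21, with Ccnd3 (88 tags) and Cdk4 (21) ahead.

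Erythroid genes stood near the background, at 4 of 32 or 12.5% (3.51 to 28.99), and their peaks were low. Gata1, the master transcription factor of the lineage, held 9 tags of 872 in its 5' UTR, and Epb41, of the red cell membrane skeleton, 11 of 1484 in 3 peaks. Bcl11a and Gfi1b, both repressors of transcription, had 4 tags each at their tallest. Of 9 expressed iron-responsive and metallothionein genes, Ftl1 alone held such a peak, beside 2 with a peak over the start codon. With peaks of 9 tags or more, where the background is 4.26%, ribosomal proteins stood at 19 of 79, stress mRNAs at 7 of 24 and erythroid genes at 1 of 32. The lists were not matched on abundance or leader length, so these shares are a description.

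**Figure D5:**
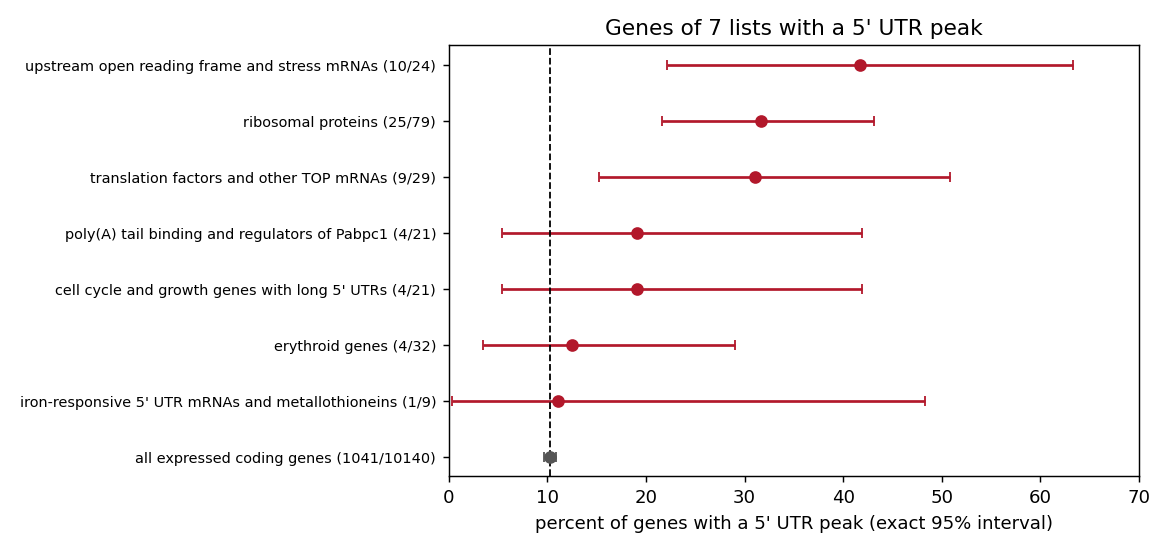
Percent of expressed genes (RPKM of 1 or more) with a 5' UTR peak off the start codon in 7 gene lists, with all expressed coding genes at the bottom and as a dashed line at 10.3%. Points carry exact 95% intervals, and labels give the genes with a peak over the genes expressed. Stress mRNAs, ribosomal proteins and translation factors lie to the right of the line with their intervals.

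A TOP-like start, a C followed by 4 or more of C and T, was found at the start of the longest 5' UTR in 31 of the 1041 genes with a 5' UTR peak, 2.98% (2.03 to 4.20), against 2.18% (1.89 to 2.50) of expressed coding genes without one. Taking any annotated start of the gene, the shares were 7.20% (5.71 to 8.95) and 4.26% (3.86 to 4.70). Among ribosomal protein genes they were 8 of 25 with a peak and 13 of 54 without. The match is to the annotated first base, which was not measured here.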

How the data were processed

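Per the labels, MEL cells were cross-linked by ultraviolet light, and PABPC1-RNA complexes were precipitated and sequenced in biological triplicate. Per the submitters' processing notes, cutadapt 1.4.2, Novoalign 3.02.02, TopHat2 2.0.12, HTSeq 0.6.0 and mm10 were used, without the role of each. The authors deposited a merged peak list whose score, a signal with no stated unit, was read as height in tags, because 99.8% of the 10137 deletion sites inside a peak had no more tags than its score. The deposited deletion list gives counts of deleted tags. The deposited RPKM hold a single value for each gene over both mRNA-seq samples, and 290 of 18349 identifiers were not found in GENCODE M21. Read numbers per sample are not given in the files, so depth per sample is unknown. The peak caller, its threshold and the handling of shared reads are not given in the sources used here.

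Peaks were placed by midpoint, in the order 3' UTR, 5' UTR, coding sequence, non-coding exon, intron. Windows ran 20 nt either side on the spliced transcript with the longest 5' UTR, and backgrounds are all positions of the same 5' UTRs. Scripts used Python 3.11.15, numpy 2.4.6 and scipy 1.17.1, and mapping was checked on simulated transcripts. Members and lists were chosen with earlier results of these data known. Named genes are the 12 tallest peaks, 1 a gene, the 10 genes with the most deletions (Ddx6 and Zfp560 tied with the last), the 8 largest shares in genes of 50 tags or more, the 2 tallest of each of 7 lists, and Pabpc1, and some genes that the rule names are not reported here. Alternatives were the height threshold, order of regions, transcript, window, RPKM filter and pseudocount.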

Additional observations from a re-analysis of the deposited data

How the results depend on the processing

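No paired analysis was possible because the CLIP-seq replicates were merged by the authors and the mRNA-seq has 1 value a gene, so leaving out a replicate could not be run either. Under the alternatives, 22 values moved, by over 1.5 times for the number of peaks and out of the reported value's 95% interval otherwise. The other 38 stayed within these limits, which are wide for short gene lists. Cell cycle and growth genes thus counted as unmoved at 9.52% with 9 tags or more, against 19.0%. The number of peaks fell to 534 at 9 tags or more and to 43 at 74 tags or more, and to 899 when every coding transcript had to agree (chosen after seeing the data). It was 1150 with coding sequence ahead of 5' UTR. The median position was 0.580 with the shortest UTR and 0.726 with start codon peaks kept. Windows of 50 nt either side lowered the ratios to 1.66 for AAAAAA, 1.84 for AATAAA and 1.71 for ATATAA, while peaks of 29 tags or more, a threshold chosen after seeing the data, raised those of AAAAAA to 3.86 and AATAAA to 5.02. The ratio of A to even placement, 1.14 (1.11 to 1.17, from the spread over windows), was 1.10 with 50 nt either side, 1.18 at 9 tags or more, 1.23 at 29 or more and 1.17 against positions 30 nt or more before the start codon, and that of G and C, 0.914, was 0.935, 0.897 and 0.868 under the first 3 of these. Peaks of 9 tags or more held a deletion site in 3.56%. The median share of a gene's height was 3.14% with start codon peaks kept, and the median log2 height over RPKM was -2.09 with a pseudocount of 0.1. Erythroid genes stood at 3.13% at 9 tags or more, and TOP-like starts at 7.20% for any annotated start. Height thresholds, and keeping start codon peaks, change the peaks counted by construction; the cause of the other shifts was not tested. At 9 to 28 tags, no more than 1.37% of 5' UTR, coding or 3' UTR peaks held a deletion site.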

Other observations

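At 3 of the 24 deletion sites of the 5' UTR peaks that lie in transcripts, in Mff, Csnk1g2 and Mllt10, the listed base was a T of the TTT in TTTAAG, 12.5% (exact 95% interval 2.66 to 32.4). Any T of the TTT was counted, since the lost base cannot be placed within a run. Such T make up 0.107% of positions in the same regions. The hexamer was noticed in the printed sequences and then counted, so the first value is a description. The count is 3 for all 73 deletion sites in 5' UTRs as well, so that the other 49 held none. It was 17 of 895 in coding sequence, 1.90% (1.11 to 3.024) against 0.0685% of positions, and 143 of 8755 in 3' UTRs, 1.63% (1.38 to 1.92) against 0.169%.

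Spen, whose product represses transcription, held a 33-tag 5' UTR peak only 19 nt wide, beside Adcyap1r1 the only other of 29 tags or more and 30 nt or less.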
